A study of Homo sapiens with 12 samples.

Results

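Wild-type (WT) HCT116 cells that had serum added back after starvation were compared with WT cells that had only been starved. HCT116 is a human colorectal carcinoma cell line, and expression was measured by sequencing polyadenylated RNA. Starved cells were kept in medium without serum, and refed cells received fetal bovine serum after 24 h without it; the interval from serum addition to harvest is not given in the sources used here. The labels also describe WT cells in normal culture (WT mock) and the same 3 culture states in HCT116 cells with a knockout of KDM3A (KO), a histone demethylase; whether the knockout line is 1 clone is not stated. There are 12 samples in the labels, 2 for each of 6 groups, but every deposited table holds 1 column named for its group, so each group was 1 value, no spread between replicates could be estimated, and no difference below has a test. Genes were taken where FPKM (fragments scaled by transcript length and by the number of mapped fragments in the library) was 1 or more in WT starved or WT refed, and the response is the log2 ratio of (FPKM + 1), refed over starved. This rule kept 12475 of the 26372 features in the tables. The kept features comprised 283 short RNAs, such as small nucleolar RNA and microRNA, and 12192 others, called genes below.

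Serum supplies growth factors and lysophospholipids that act on receptor tyrosine kinases and G protein-coupled receptors. Both routes act within minutes on transcription factors already present in the cell: the ERK pathway phosphorylates ternary complex factors bound beside serum response factor (SRF), and signalling to actin releases the SRF cofactor MRTF and the TEAD cofactors YAP and TAZ. The genes that respond first, the immediate early genes, are mostly short, need no new protein for their induction, and often carry AU-rich elements in their mRNA that make it short-lived. Many encode transcription factors such as FOS, JUN and EGR1 or inhibitors of the signal itself, such as the dual-specificity phosphatases.

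The response was narrow and mostly upward. At least 2-fold higher in refed cells were 154 of the 12192 genes, or 1.26%, and at least 2-fold lower were 7, or 0.0574%. Of the 154, 77 were at least 3-fold higher, 48 at least 4-fold, 21 at least 8-fold and 11 at least 16-fold, while no gene was 3-fold lower on this scale. These counts use (FPKM + 1), whereas the fold printed for a single gene is the ratio of FPKM itself; on that ratio some genes of low level, such as NEUROD6 (0.132) and AXIN2 (0.295), were more than 3-fold lower. Over all genes the median log2 ratio came to -0.03, and 95.7% of genes lay within 0.5 log2 of no difference. In FPKM, 133 of the 154 reached 5 or more in refed cells, and 24 were under 1 in starved cells. Leaving out EEF1A1, the other 153 made up 0.548% of the summed FPKM of genes in starved cells, 2.21% in refed cells and 0.797% in WT mock.

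EEF1A1, a translation elongation factor with many processed pseudogenes, was listed at 0 in all columns but one and at 3742 FPKM in WT refed; it is included in the 154 and in each of the fold counts above, but no fold is given for it. Short RNA features behaved unlike the genes, with 74 higher and 85 lower among 283. With them included, 1.83% of the 12475 features were 2-fold higher and 0.737% were 2-fold lower, so 85 of the 92 lower calls were short RNA. Their FPKM depends strongly on their short length, and they are not described further.

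**Figure D1:**
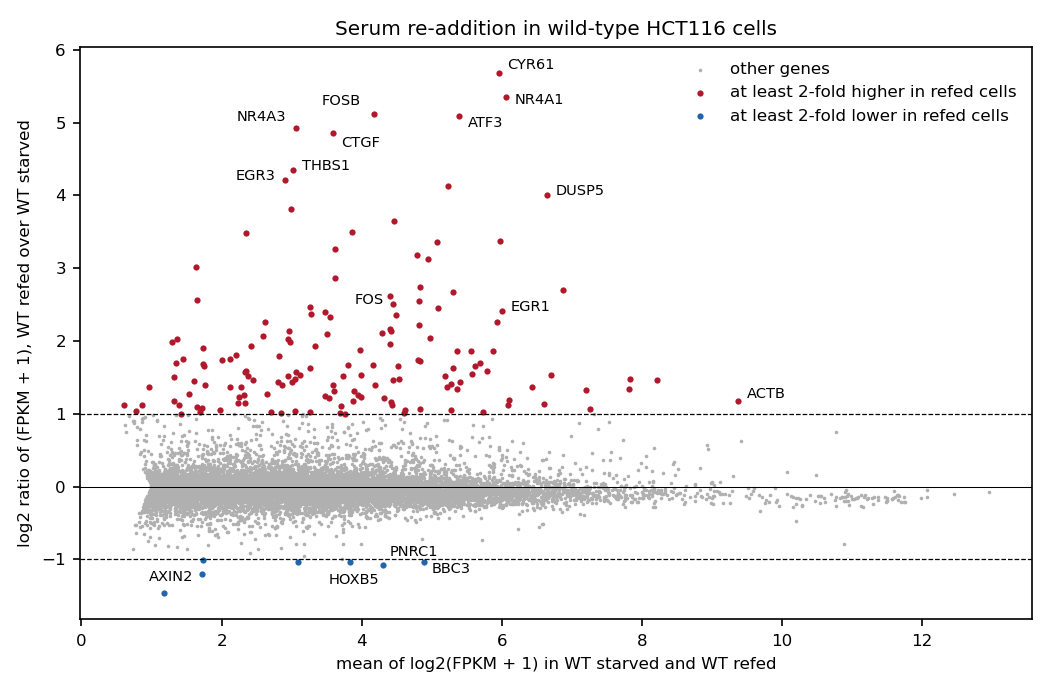
Log2 ratio of (FPKM + 1), WT refed over WT starved (y axis), against the mean log2(FPKM + 1) of both columns (x axis), for the measured genes other than short RNA features and EEF1A1. Each point is a gene with 1 value per group. Dashed lines mark 2-fold. Red points above the upper line reach a log2 ratio of 5.68 (CYR61), and the 7 blue points below the lower line reach -1.46.

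The 4 sets of sequence that follow come from reference tables and not from the sequenced cells. The first 3 lines show the 150 bases before the RefSeq start site (build GRCh38.p14, 5′ to 3′ on the gene's strand) of SRF, EGR1 and EGR2, which hold CArG boxes, the elements SRF binds, in capitals.

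SRF (chr6:43171119-43171268, plus strand): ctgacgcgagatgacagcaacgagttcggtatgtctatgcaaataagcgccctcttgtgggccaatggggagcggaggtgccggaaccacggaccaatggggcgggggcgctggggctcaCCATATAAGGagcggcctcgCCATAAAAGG
EGR1 (chr5:138465329-138465478, plus strand): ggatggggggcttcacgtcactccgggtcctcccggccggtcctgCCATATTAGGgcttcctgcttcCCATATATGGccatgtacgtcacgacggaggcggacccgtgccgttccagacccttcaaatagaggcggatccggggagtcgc
EGR2 (chr10:62816367-62816516, minus strand): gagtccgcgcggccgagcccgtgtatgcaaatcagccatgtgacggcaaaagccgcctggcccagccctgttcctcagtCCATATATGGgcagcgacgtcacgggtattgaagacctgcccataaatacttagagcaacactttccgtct

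These 3 genes were 7.25-fold, 5.47-fold and 25.9-fold higher in refed cells. The next pair of genes, a cytoskeletal regulator (CNN2, calponin 2) and a small GTPase (RND3), also carry a CArG box in this stretch, in capitals.

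CNN2 (chr19:1026458-1026607, plus strand): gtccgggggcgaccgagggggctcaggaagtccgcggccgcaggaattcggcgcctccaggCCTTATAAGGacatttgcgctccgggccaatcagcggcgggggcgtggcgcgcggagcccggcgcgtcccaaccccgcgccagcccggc
RND3 (chr2:150487668-150487817, minus strand): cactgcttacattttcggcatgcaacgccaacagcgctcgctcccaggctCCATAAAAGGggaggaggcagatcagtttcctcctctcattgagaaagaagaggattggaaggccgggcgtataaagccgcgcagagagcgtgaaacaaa

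The third set is DUSP1, a MAP kinase phosphatase, and AREG, an EGF receptor ligand, whose capitals mark the cAMP response element TGACGTCA, the element bound by CREB and ATF factors.

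DUSP1 (chr5:172771196-172771345, minus strand): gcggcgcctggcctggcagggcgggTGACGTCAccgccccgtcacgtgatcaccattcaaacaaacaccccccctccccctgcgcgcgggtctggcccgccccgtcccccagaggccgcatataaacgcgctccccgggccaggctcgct
AREG (chr4:74444986-74445135, plus strand): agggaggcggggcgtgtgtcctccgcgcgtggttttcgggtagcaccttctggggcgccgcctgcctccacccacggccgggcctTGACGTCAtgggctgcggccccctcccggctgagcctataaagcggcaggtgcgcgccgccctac

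The fourth set shows 29 bases of the 3′ untranslated region (GENCODE release 29 transcripts, build GRCh38, 5′ to 3′ on the gene's strand) around the AU-rich nonamer TTATTTATT, in capitals, from a transcription factor, a phosphatase, a chemokine and an RNA-binding protein that itself targets such elements.

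FOS (chr14:75282060-75282088, plus strand): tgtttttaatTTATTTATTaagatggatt
DUSP1 (chr5:172768375-172768403, minus strand): agaatataccTTATTTATTtttgtgtagg
CXCL8 (chr4:73742664-73742692, plus strand): atgtaaagtaTTATTTATTtgaatctaca
ZFP36 (chr19:39409196-39409224, plus strand): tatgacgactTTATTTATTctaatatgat

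Among the transcription factors, the AP-1 family held 10 of 12 members that were 2-fold higher, against 1.26% of all genes. Its median log2 ratio was 2.43, against -0.03 for all genes. The share of 1.26% also belongs beside the counts of 2-fold higher members in the lists below. AP-1 is a dimer of FOS and JUN family proteins. FOSB was at 2.08 FPKM in starved and 106 in refed cells, a 51.0-fold difference, with 0.565 in WT mock. FOS itself was at 8.17 and 51.2 FPKM, 6.27-fold, with 8.01 in WT mock. Both FOSB and FOS were thus highest in refed cells among the 3 WT columns. FOSL1 was at 18.6 and 203 FPKM, and FOSL2 at 3.54 and 32.2.

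JUN, the main partner of FOS, was at 8.19 FPKM in starved and 82.6 in refed cells. JUNB (91.6 and 232) and JUND (104 and 220) started higher and differed less, by 1.33 and 1.07 on the log2 scale. ATF3, a stress-induced factor that dimerises with JUN proteins, was at 6.21 and 244 FPKM, 39.3-fold. The small MAF proteins MAFF and MAFK had log2 ratios of 2.36 and 1.17.

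All 3 NR4A orphan nuclear receptors were among the 10 genes with the largest log2 ratio apart from EEF1A1. NR4A1 was at 9.42 FPKM starved and 425 refed, NR4A2 at 8.03 and 157, and NR4A3 at 0.519 and 45.2. In WT mock these were 6.02, 5.48 and 0.116 FPKM, below the starved level in each case. Zinc-finger factors of the EGR family showed the same direction in 4 of 4 EGR genes, while the co-repressors that bind them, NAB1 and NAB2, did not reach 2-fold. EGR1 was at 26.9 FPKM starved and 147 refed, EGR2 at 1.12 and 28.9, EGR3 at 0.743 and 31.2, and EGR4 at 0.217 and 2.13. NAB2 was at 21.4 and 38.8 FPKM, a log2 ratio of 0.83.

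Kruppel-like factors were 2-fold higher in 5 of 10 measured members. KLF6 was at 13.6 FPKM starved and 78.8 refed, KLF4 at 4.21 and 25.1, KLF2 at 27.5 and 91.5, KLF5 at 13.6 and 30.9 and KLF10 at 18.6 and 40.2. MYC, a growth regulator often counted among immediate early genes, was at 117 FPKM starved and 146 refed, a log2 ratio of 0.32, with 77.9 in WT mock. MYC thus stayed short of 2-fold in this comparison.

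A list of 38 other immediate early genes had 23 members 2-fold higher and a median log2 ratio of 1.25. CSRNP1, a nuclear protein, was at 2.98 FPKM starved and 37.2 refed. The transcription factor SRF was at 10.1 and 73.0 FPKM, the repressor BHLHE40 at 14.6 and 98.6, and the kinase SIK1 at 0.294 and 6.67. RNA-binding proteins that speed the decay of AU-rich mRNA were in the same direction, with ZFP36 at 23.6 and 89.0 FPKM and ZFP36L2 at 12 and 29.3. The survival protein MCL1 was at 29.7 and 111 FPKM. The antiproliferative factor BTG2 was at 8.42 and 39.7 FPKM, and the Polo-like kinases PLK2 and PLK3 had log2 ratios of 2.09 and 1.96. Members short of 2-fold included IER3, abundant in both columns (396 and 590 FPKM), TRIB1 (111 and 223, a log2 ratio of 0.99) and IER5L, which was lower in refed cells (91.2 and 60.4).

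**Figure D2:**
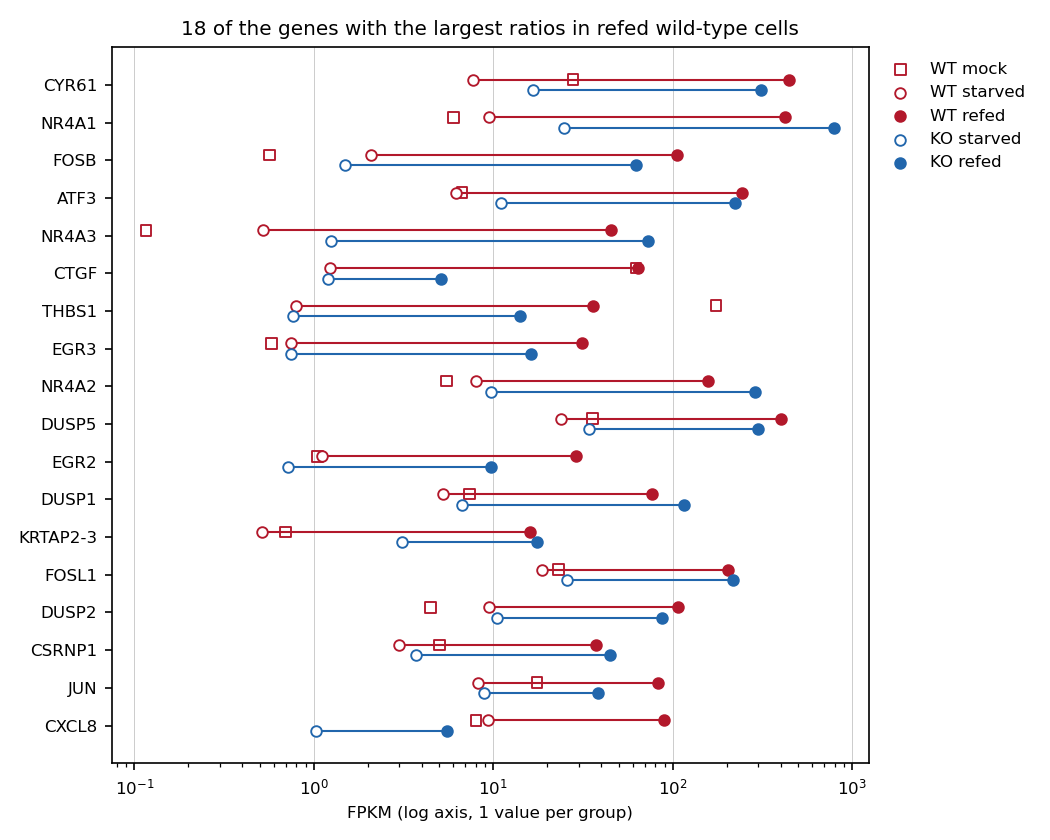
FPKM on a log axis (x) for 18 of the genes with the largest log2 ratios at 5 FPKM or more in WT refed (y, largest at the top), 1 value per group. Red lines join WT starved (open circle) to WT refed (filled), blue lines join KO starved to KO refed, and open squares are WT mock. In all 18 genes the WT refed circle lies right of WT starved, from 16 FPKM for KRTAP2-3 to 444 for CYR61, and the KO refed circle lies right of KO starved.

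Inhibitors of the mitogenic signal were uneven. Dual-specificity phosphatases remove phosphate from MAP kinases. DUSP5, which acts on nuclear ERK, was at 23.9 FPKM starved and 400 refed, 16.7-fold, and DUSP4 was at 12 and 59.9. DUSP1, DUSP2 and DUSP8 were at 5.24 and 77.1, 9.49 and 107, and 1.95 and 11.3 FPKM. The cytoplasmic ERK phosphatase DUSP6 was at 54.9 and 72.7 FPKM, a log2 ratio of 0.40, and the Sprouty gene SPRY1 was at 1.03 and 0.415. In all, 3 of 13 genes listed as ERK feedback were 2-fold higher (DUSP4, DUSP5 and the receptor EPHA2), with a median of -0.04, against 3 of 6 other dual-specificity phosphatases, with a median of 1.42. Over members at 5 FPKM or more in either column these medians were 0.40 and 2.71, so the sign of the first depended on the filter. ERRFI1, an inhibitor of the EGF receptor, was at 177 and 490 FPKM.

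Several ligands of the EGF receptor were higher in refed cells, and the receptor EGFR was at 5.30 FPKM starved and 5.57 refed. AREG was at 44.8 FPKM starved and 297 refed, HBEGF at 1.46 and 7.60, and EREG at 22.7 and 61.8, so 3 of 8 measured members of the family were 2-fold higher. TGFA, another ligand, was at 6.82 and 7.82 FPKM. The cytokine LIF was at 24.8 and 64.3 FPKM and the vasoconstrictor peptide EDN1 at 0.274 and 4.18. Chemokine CXCL8 was at 9.37 and 89.8 FPKM and CXCL2 at 1.10 and 4.50. The inhibitor NFKBIA, an early target of NF-kB, was in the other direction, at 113 and 78.8 FPKM, and 2 of 17 NF-kB and chemokine genes were 2-fold higher.

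The largest log2 ratio of a gene measured in both columns was that of CYR61 (CCN1), a matricellular protein and target of YAP with TEAD. CYR61 was at 7.66 FPKM in starved and 444 in refed cells, 57.9-fold, against 27.8 in WT mock. CTGF (CCN2), its relative, was at 1.24 and 64.0 FPKM, 51.8-fold, against 62.3 in WT mock. For CTGF the refed value was close to the mock value, and for CYR61 it was far above it. Of 20 measured YAP/TEAD targets, 7 were 2-fold higher, among them AMOTL2 (2.94 and 14.6 FPKM), NUAK2 (1.36 and 6.94) and LATS2 (0.852 and 4.05), and the median was 0.10, or 0.97 over targets at 5 FPKM or more in either column. AMOTL2, GADD45B and F3 are also on the immediate early list.

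Secreted matrix and adhesion genes were close to level, with 1 of 14 measured members 2-fold higher and a median log2 ratio of 0.05. The exception, the matrix glycoprotein THBS1, was at 0.798 FPKM starved and 35.7 refed. Of the plasminogen activator genes, the urokinase gene PLAU was at 20.5 and 77.3 FPKM and its receptor PLAUR at 26.9 and 133. WT mock was far above the refed level for THBS1 (175 FPKM). The WT mock column also held 17 of 18 endothelial markers at 1 FPKM or more, with a summed 316 FPKM, against 3 of 18 in both WT starved (59.2) and WT refed (50.5). The part of those transcripts in the mock values of THBS1 and CTGF was not tested, and WT mock does not enter the refed to starved ratio.

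SRF and MRTF also control actin and its regulators. Of 27 such genes, 25 had a ratio above 0 and 6 were 2-fold higher, and the median log2 ratio was 0.62. ACTB, cytoplasmic actin, was at 441 FPKM starved and 995 refed, and ACTG1 at 1344 and 2273, so ACTG1 did not reach 2-fold. Both actins have processed pseudogenes, so reads may be split among copies. The focal adhesion protein ZYX was at 52.8 and 138 FPKM, CNN2 at 26.5 and 86.1, TAGLN at 3.84 and 13.5, and TUFT1 at 3.28 and 21.2. Vinculin (VCL), myosin heavy chain MYH9 and filamin FLNA lay between 0.62 and 0.79 on the log2 scale. Of the 154 genes, 79 were in 1 or more of the 41 lists and 75 were in none of them, though some of the 75 are in lists added after values were seen. Examples in no list of either kind were AVPI1 (7.53 and 51.4 FPKM), MYADM (10.7 and 67.5), RND3 (3.06 and 21.5) and the mitotic inhibitor kinase WEE1 (8.99 and 43.9), chosen after their values were seen.

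**Figure D3:**
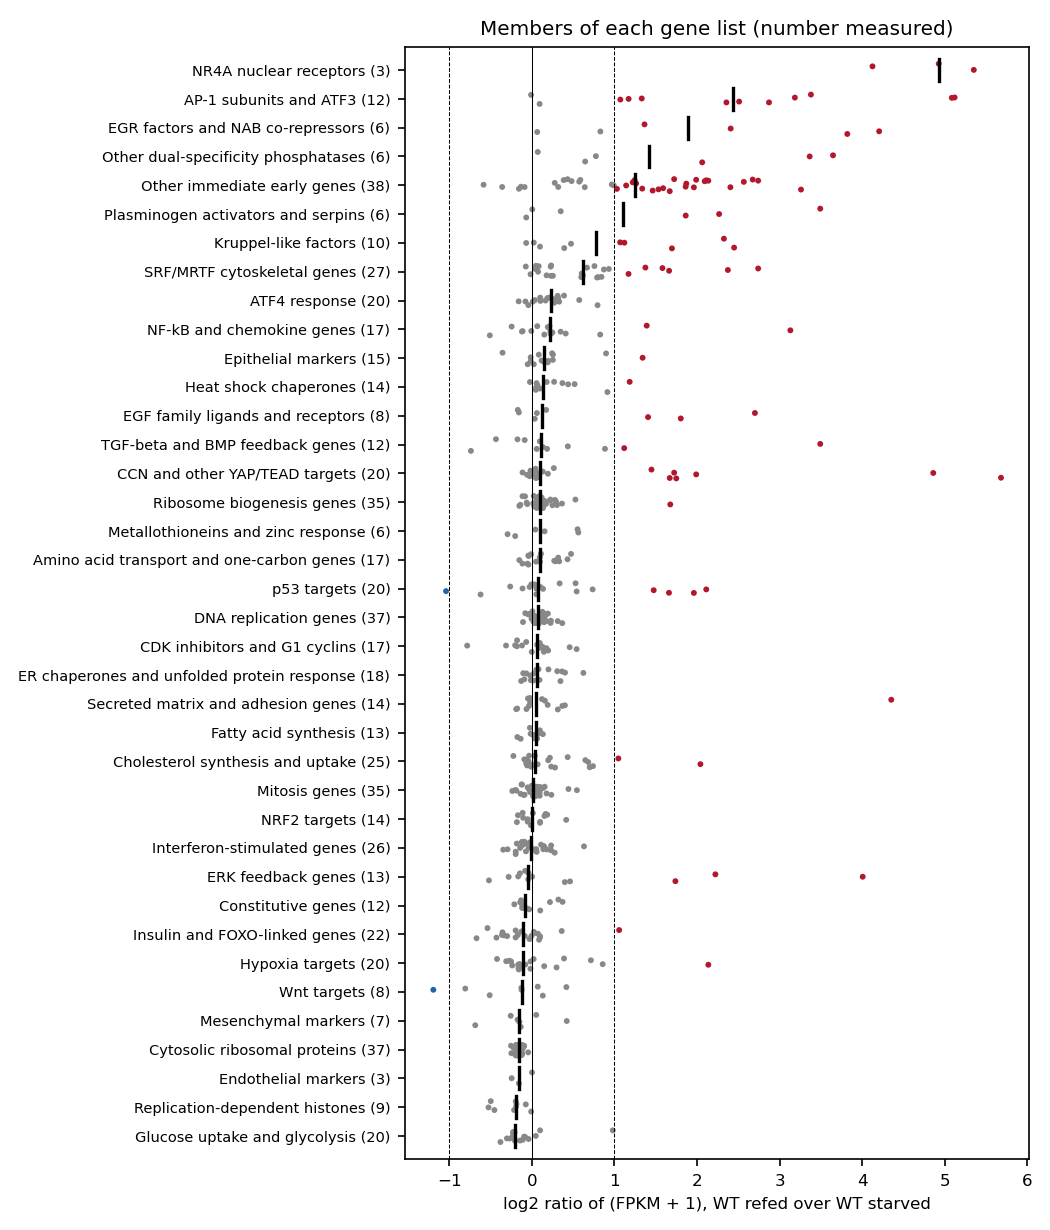
Log2 ratio of (FPKM + 1), WT refed over WT starved (x axis), for each measured member of those of the 41 gene lists, without the lists added later, that had 3 or more measured members (y axis, number in brackets), sorted by median. Points are genes, black bars are medians, red marks at least 2-fold higher and blue at least 2-fold lower. The medians run from 4.93 (NR4A receptors) to -0.21 (glucose uptake and glycolysis), and the lists below the SRF/MRTF genes have medians within 0.25 of 0.

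Genes of the cell cycle itself were close to level. None of 37 DNA replication genes and none of 35 mitosis genes was 2-fold different, with medians of 0.08 and 0.02. CCND1, the G1 cyclin that growth factors act on, was at 46.0 FPKM starved and 52.1 refed. The inhibitor CDKN1B (p27), a marker of quiescence, was at 16.5 and 9.18 FPKM, a log2 ratio of -0.78, and CDKN1A (p21) was at 50.4 and 73.8. Ribosome biogenesis genes had 1 of 35 members 2-fold higher, RRP12 (9.04 and 31.1 FPKM), with a median of 0.10. Cytosolic ribosomal protein genes were all 37 slightly lower, with a median of -0.15, and 17 of 20 genes of glucose uptake and glycolysis were lower, with a median of -0.21. Those shifts remained negative when values were rescaled by the median ratio (-0.11 and -0.17). In KO cells, refed over starved, the medians of the same lists were -0.04 for ribosomal proteins and 0.01 for glucose uptake and glycolysis.

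Sterol genes differed little as a list. INSIG1, which holds back sterol regulatory element-binding proteins, was at 25.9 FPKM starved and 54.7 refed, a log2 ratio of 1.05. The synthesis enzyme HMGCS1 was at 19 and 32.4 FPKM and IDI1 at 36.5 and 59.3, and over 25 cholesterol genes the median log2 ratio was 0.04. None of 13 fatty acid synthesis genes reached 2-fold. Starvation-linked FOXO and insulin genes were 2-fold higher in 1 of 22, YPEL5 (16.1 and 34.5 FPKM), and the median was -0.11; PIK3IP1 (3.01 and 1.52) and CCNG2 (5.53 and 3.50) were lower without reaching 2-fold. Of 20 p53 targets, 4 were 2-fold higher (BTG2, PLK3, PMAIP1 and GDF15) and 1 was 2-fold lower (BBC3). No member of the ATF4 response (20 genes), of the endoplasmic reticulum chaperones (18), of the NRF2 targets (14) or of the interferon-stimulated genes (26) was 2-fold different. Heat shock chaperones had 1 of 14 and hypoxia targets 1 of 20, DNAJB1 (44.7 and 103 FPKM) and ANKRD37 (2.71 and 15.3).

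The 7 genes that were 2-fold lower came from different lists or from none. PNRC1, a nuclear receptor coactivator, was at 27.6 FPKM starved and 12.5 refed. BBC3 (PUMA), a pro-apoptotic BCL2 family protein, was at 41.3 and 19.6 FPKM, the transcriptional repressor ZNF503 at 11.2 and 4.92, and the homeobox gene HOXB5 at 19.3 and 8.92. The Wnt feedback gene AXIN2 was at 3.97 and 1.17 FPKM, and other Wnt targets SP5 and RNF43 had log2 ratios of -0.81 and -0.51 without reaching 2-fold. NEUROD6 (2.76 and 0.366) and LOC101927765 (3.72 and 1.36) were low in both columns. PNRC1 was the 1 gene 2-fold lower in KO cells too.

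Values near the 2-fold limit were close together. Just inside were TUBB2A (1.0016 on the log2 scale), PER2 (1.0033) and MAP2K3 (1.0085), and just outside were IFFO2 (0.998), TRIB1 (0.992) and ZNF217 (0.992). By starved level, 2-fold higher genes were 24 of 162 under 1 FPKM, 49 of 4563 from 1 to 5, 32 of 2496 from 5 to 10, 40 of 3814 from 10 to 50, 4 of 612 from 50 to 100 and 5 of 545 at 100 or more. The first of these groups could enter only through a refed value of 1 FPKM or more.

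The same serum step was made in KO cells, with no column shared between the 2 ratios. KDM3A was at 17.8 FPKM in WT starved and 19.8 in WT refed, against 3.01 and 3.59 in the KO columns. In KO cells 179 of 12329 genes were 2-fold higher (1.45%) and 2 were 2-fold lower (0.0162%). The genes higher in both numbered 112, which is 72.7% of the 154 WT genes and 62.6% of the 179 KO genes. Of the 154, 149 had a KO ratio above 0, 27 had one between 0.5 and 1, and 15 had one under 0.5. The median log2 ratio of the 154 genes was 1.59 in WT, whose values chose them, and 1.28 in KO; for the 179 KO genes it was 1.49 in KO, which chose them, and 1.37 in WT. Across 11916 genes, which are not independent replicates and share a library within each column, Pearson r of the 2 ratios was 0.793; without the genes that were 2-fold higher in either, r was 0.594.

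For the NR4A receptors the KO values were like the WT values or larger, with NR4A1 at 24.9 FPKM starved and 796 refed and NR4A2 at 9.65 and 289. FOS was at 5.17 and 55.7 FPKM in KO. DUSP1 and AREG were at 6.70 and 115 and at 95.4 and 578. Others were smaller in KO: 19 of the 154 had a WT response at least 2-fold larger than the KO response and 1 had one at least 2-fold smaller. The 154 were chosen by their WT ratio, which favours larger WT responses, so these counts do not compare the genotypes. CTGF was at 1.20 and 5.09 FPKM in KO, CYR61 at 16.6 and 309, CXCL8 at 1.03 and 5.50, and JUN at 8.84 and 38.1. Without replicates these differences between genotypes cannot be set against an error.

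**Figure D4:**
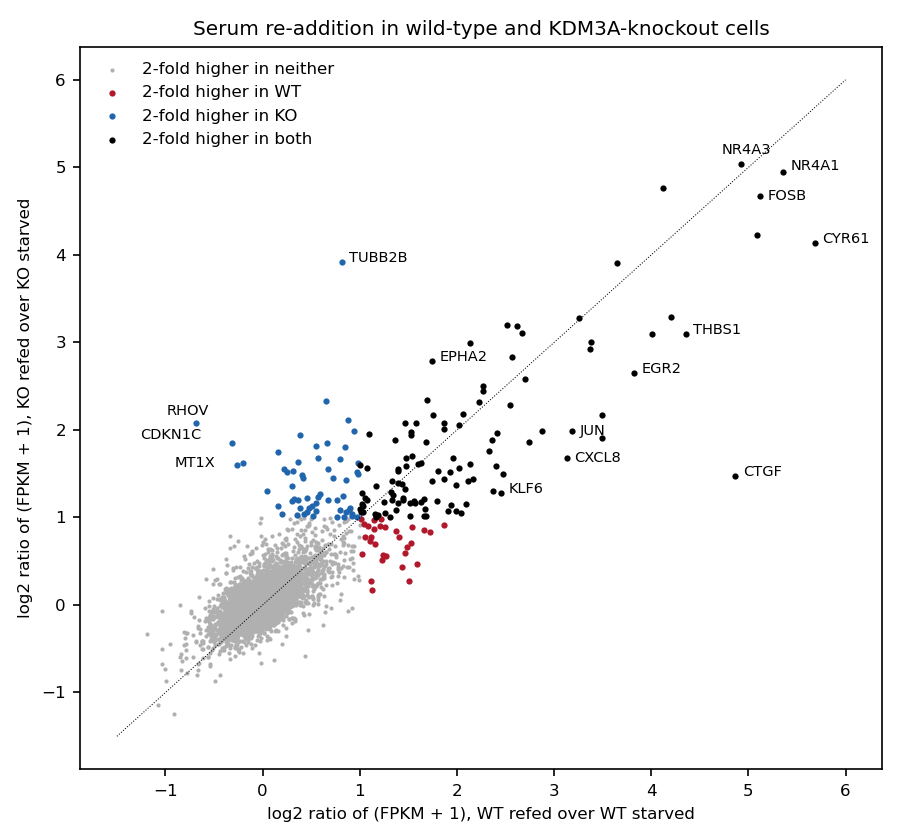
Log2 ratio of (FPKM + 1), refed over starved, in WT (x axis) and in KO (y axis), for the genes measured in both apart from EEF1A1; each point is a gene and the dotted line marks equal ratios. Most genes 2-fold higher in WT are black, 2-fold higher in both, while CTGF (4.86 in WT, 1.47 in KO) and CYR61 (5.68, 4.14) lie right of the line.

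Markers of cell types were checked in both columns. Epithelial markers summed to 2403 FPKM in starved and 2872 in refed cells with 13 and 15 of 16 markers at 1 FPKM or more. Mesenchymal markers summed to 1691 and 1540 FPKM, with 7 and 6 of 12 at 1 or more. Fibroblast markers had 1 of 10 and leukocyte markers 2 of 10 at 1 or more in both columns. The epithelial gene CLDN4 was itself 2-fold higher (140 and 357 FPKM). The 2 columns stood apart from the other 4 in low values, with 4300 and 4301 features listed at 0, of which 3382 were shared, against 6401 in WT mock and 7075 to 7312 in KO. Of the 154 genes, 12 were under 1 FPKM in all 3 KO columns, against 230 of all 12192. Among them were SNAP25 (0.407 and 3.58 FPKM in WT), BASP1 (0.479 and 4.0), GPM6B (0.660 and 2.75) and GNAO1 (0.237 and 1.69), genes known from neurons and glia. The 12 also included EEF1A1, EGR4, GPR183, GBP1 and GLIPR1. A list of 18 neuron and glia genes was written after these values were seen. It had 6 at 1 FPKM or more in starved and 11 in refed and in mock WT cells, with sums of 101, 127 and 141 FPKM. Of its 12 measured members, 5 were 2-fold higher and 1, NEUROD6, was 2-fold lower, against 1.26% and 0.0574% of all genes. The part of neuron and glia transcripts in these ratios was not tested.

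The 154 genes were short in span. A GENCODE release 29 transcript was found for 151 of them and for 11389 of the 12192 measured genes. The median gene span was 12708 bases, against 30935 for all measured genes, and the median number of exons was 5, against 9. Genes with 5 or fewer exons made up 60.3% of the 151 and 26.9% of all. Transcript length was like that of all genes (a median of 2948 and 3063 bases), as was the 3′ untranslated region (1252 and 1031 bases). The span of FOSB was 7185 bases, that of DUSP1 3106 and that of CYR61 3202.

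The nonamer TTATTTATT, searched on the transcript strand, was in the 3′ untranslated region of 39 of the 151 genes (25.8%) and of 901 of all measured genes (7.91%). Per kilobase of that region it occurred 0.204 times in the 151 genes and 0.0634 times in all. Holders included FOS, FOSL2, MAFF, SRF, ZFP36, ZFP36L2, CXCL8, CXCL2, DUSP1, PLAUR and LIF, and DUSP1, MAFF and LIF held it more than once; CXCL2 held several overlapping copies. Of the 20 genes with the largest ratios 4 held it (THBS1, DUSP1, CSRNP1 and CXCL8). A match is a run of letters and no sign that the element acts.

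**Figure D5:**
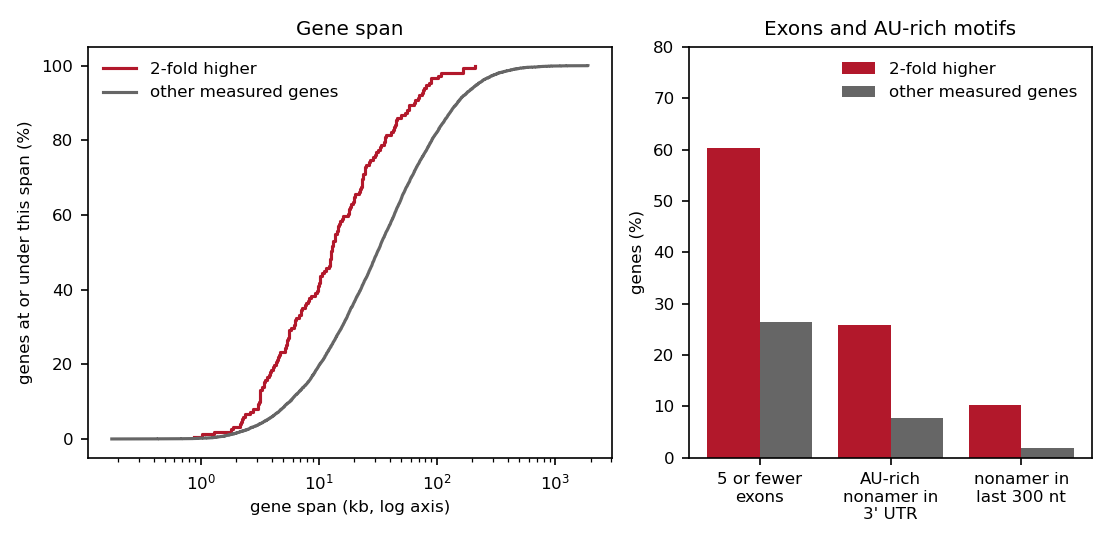
Left: cumulative percent of genes (y axis) at or under a gene span (x axis, kb, log axis) for the 2-fold higher genes (red) and the other measured genes (grey). Right: percent of genes in the same 2 sets with 5 or fewer exons, with the nonamer anywhere in the 3′ untranslated region, and with it in the last 300 bases of that region. The last share is over the 145 and 9154 genes whose region was 300 bases or longer. The red curve lies left of the grey one, with medians of 12708 and 31281 bases, and the red bars are 60.3%, 25.8% and 10.3% against 26.4%, 7.67% and 1.85%.

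RefSeq promoter windows, from 250 bases before to 50 after a start site, matched 113 of the 154 genes by symbol, which is 73.4% and under the 80% set for a comparison, so a comparison of motif shares with all genes is void. Both strands were searched for the CArG box, for TGACGTCA and for the AP-1 site (TGACTCA or TGAGTCA). Of the 164 windows of the 113 genes, 11 held a CArG box, 19 held TGACGTCA and 11 held an AP-1 site. In the 14125 windows of 9711 measured genes the shares were 1.13%, 2.94% and 3.48%. Those genes were 79.7% of all measured genes, also under 80%, so these shares are not a background for the counts. CArG boxes lay 105 and 83 bases before the start of EGR1, 30 and 10 before that of SRF, 71 before that of EGR2 and 89 before that of CNN2, counted to the first base of the match. TGACGTCA lay 125 bases before the start of DUSP1, 65 before that of AREG and 54 before that of MAFF, and the window of DUSP8 held 2. An AP-1 site lay 137 bases before the start of CXCL8 and 186 before that of PLAUR. CYR61 and DUSP5 were among the genes without a window.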

How the data were processed

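FPKM values were computed and deposited by the authors in 1 table per group, from polyadenylated RNA per the labels' protocols. FastQC, cutadapt and TopHat2 and build hg19 are named, without versions, in the submitters' processing notes; the FPKM program and annotation are not given in the sources used here. Read depth is unknown, so no counting interval is given. Estimated FPKM can be split between near-identical copies (actins, metallothioneins, tubulins, KRTAP2-3, AREG in hg19).

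With Python 3.11.15, numpy 2.4.6 and pandas 2.3.3, log2 ratios were taken after a pseudocount of 1 FPKM over features at 1 FPKM or more in either column, and a call was a 2-fold difference, with no test. The calling code was tested on simulated data. Figures used matplotlib 3.10.9.

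Genes named were the 20 largest ratios each way at 5 FPKM or more, up to 4 members per list with the largest ratios, and FOS, EGR1, CYR61, CTGF, MYC, DUSP6, CCND1, INSIG1 and KDM3A; others named were chosen after their values were seen, and some genes that meet the rule are not reported here. The members and 41 lists were chosen with earlier results of these data known, and 6 lists were added after values were seen. Alternatives were other pseudocounts, filters and scalings. Transcripts came from GENCODE release 29 and promoters from RefSeq (GRCh38.p14), matched by symbol; their coordinates are not those of hg19.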

Additional observations from a re-analysis of the deposited data

Results flagged for a closer look

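Read-through genes aside, the serum response of 3 genes went in opposite directions in WT and KO cells, with at least a 2-fold response in 1 genotype; the difference between genotypes was not tested, since each group is 1 value. RHOV, a small GTPase, was at 8.94 FPKM starved and 5.18 refed in WT and at 5.39 and 25.9 in KO, and its WT response minus its KO response was -2.76 on the log2 scale. CDKN1C, a cyclin-dependent kinase inhibitor, was at 6.65 and 5.16 FPKM in WT and at 16.4 and 61.9 in KO, a difference of -2.16. MT1X, a metallothionein with close paralogs, was at 77.9 and 67.6 FPKM in WT and at 38.6 and 121 in KO, a difference of -1.83.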

How the results depend on the processing

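Counts depended mainly on the pseudocount and on short RNA features. Over all features, 228 were 2-fold higher and 92 lower; a pseudocount of 5 FPKM gave 123 and 42, a filter of 5 FPKM gave 53 lower, and leaving out short RNA features gave 7 lower. Without short RNA features, a pseudocount of 5 FPKM gave 93 higher and 0 lower, a pseudocount of 0.1 FPKM gave 31 lower, and a filter of 5 FPKM gave 4 lower; these combined settings were chosen after seeing the data. All 154 higher genes stayed called under the pseudocount of 0.1 FPKM and both rescalings, and 93 of them under that of 5 FPKM. Of 164 named genes, 14 no longer reached 2-fold and 32 moved under the pseudocount of 5 FPKM, and none changed direction under any setting run. Of 40 list medians, 7 moved under the filter of 5 FPKM, 7 with no filter, 7 under the pseudocount of 5 FPKM, 5 under that of 0.1 FPKM and 0 under rescaling. With the filter of 5 FPKM the median of ERK feedback genes went from -0.04 to 0.40, of Wnt targets from -0.13 to 0.07 and of YAP/TEAD targets from 0.10 to 0.97. Without a filter, mesenchymal markers went from -0.15 to 0.01. Under rescaling the interferon-stimulated genes alone changed sign, from -0.01 to 0.03. No paired analysis was possible because the columns carry no replicate number, and for the same reason no replicate could be left out. Depth is unknown, so low FPKM values have no known precision.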

Other observations

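Lists written after values had been seen add groups the report leaves out, as values with no test. Over all genes in WT, 1.26% were 2-fold higher and 0.0574% were 2-fold lower, and in KO 1.45% were 2-fold higher. Circadian clock genes had 3 of 13 members 2-fold higher: BHLHE40 with the period genes PER1 (9.23 FPKM starved, 44.0 refed) and PER2 (0.898 and 2.81). The clock genes DBP (10.9 and 5.86 FPKM) and NR1D1 (19 and 12.7) were lower without reaching 2-fold. Of 10 genes known to respond to glucocorticoids, 5 were 2-fold higher, among them TSC22D3 (6.69 and 18.2 FPKM), which encodes a leucine zipper protein, and CEBPD; the list shares DUSP1, PER1 and ERRFI1 with the immediate early genes.

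HOX genes were lower as a group, with 19 of 21 ratios below 0, a median log2 ratio of -0.32 in WT and -0.24 in KO, and 1 that was 2-fold lower. HOXA9 was at 33.8 FPKM starved and 18.5 refed and HOXA10 at 11.8 and 7.97. Host genes of small nucleolar RNA had a median of -0.14 over 20 genes, with SNHG25 at 2481 and 1437 FPKM and SNHG15, in the other direction, at 34.4 and 50.7. Of 6 metallothionein and zinc response genes none was 2-fold different in WT, while 4 were 2-fold higher in KO.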
